A study of Mus musculus with 30 samples.

Results

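The proteasome genes of mouse liver were measured by RNA sequencing in 6 groups of mice from 2 feeding studies. The genes were taken by name, as those of the count table whose symbol starts with Psm, a letter from a to g and a digit, without names marked -ps. The rule gave 51 of the 57180 genes of the table, and 5 names marked -ps were left out. The prevention study ran for 10 weeks with daily oral gavage. Its controls (NC) ate the standard diet and received water, its model group (MC) ate the high-fat diet and received water, and its UB group ate the high-fat diet and received UB-NPs at 60 mg/kg/day. In the treatment study the controls (NFD) stayed on the standard diet with water throughout, 18 weeks by their label. The other mice of that study were first made obese by high-fat feeding over 10 weeks. They then stayed on this diet for 8 further weeks and received either water (the HFD group) or UB-NPs at 60 mg/kg/day (the Uro group). The labels do not say what UB-NPs stands for, and strain, sex and age are not given in the sources used here. Each group had 5 libraries of whole liver from 10 mice. The labels do not say whether a library is 1 mouse, which was assumed here, so that p-values measure the spread between libraries.

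The proteasome is the protease that degrades proteins tagged with ubiquitin. Its core particle (20S) is a barrel of outer alpha rings and inner beta rings, and the peptide bonds are cut by the beta subunits encoded by Psmb5, Psmb6 and Psmb7. After interferon signalling these are replaced, in newly built particles, by Psmb8, Psmb9 and Psmb10, which form the immunoproteasome and favour peptides for presentation on MHC class I molecules. The regulatory particle (19S) holds the ATPases encoded by Psmc genes, which unfold substrates, and non-ATPase subunits encoded by Psmd genes, which bind ubiquitin and remove it. Psme1 and Psme2 encode PA28, an alternative cap of the core that interferon induces.

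By role, the 51 genes were 7 of the alpha ring, 4 structural and 3 catalytic genes of the beta ring, 3 immunoproteasome beta genes, 2 of PA28, 6 ATPases and 11 non-ATPase subunits. A further 7 encode assembly chaperones and 3 other activators or an inhibitor, namely Psme3, Psme4 and Psmf1. Psma8 and Psmb11 encode core subunits of testis and thymus. The rule also matched Psme3ip1, Psmc3ip and Psme2b, which encode no subunit of the usual particles. After the filter on low counts, 48 genes were tested in the prevention study, 47 in the treatment study and 49 in a fit of both. Psmb11 and Psme2b were tested in none of them. Psmb11 had 0 counts in MC, UB, NFD and Uro libraries and at most 7 in any other library.

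Total counts were 17001679 to 24268921 per library. Transcripts of the mitochondrial genome and of its nuclear copies took 67.2 ± 4.42%, 50.9 ± 12.9% and 44.96 ± 4.02% of them in NC, MC and UB, and 68.4 ± 10.4%, 66.1 ± 9.68% and 18.8 ± 2.82% in NFD, HFD and Uro (SD, n = 5 each). All Uro libraries were below all other libraries in this share, so the share and the treatment of obese mice cannot be told apart. Counts left for other genes were 3139342 to 19695153 per library. Levels below are CPM, counts relative to TMM-scaled library sizes, in which the mitochondrial share enters only through the scaling. The hepatocyte markers, 8 in number, summed to 13790 to 45710 CPM over the libraries and none of them was at 0 in any group.

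Summed over the 51 genes, the level was 2033 ± 91.1, 2193 ± 336 and 2276 ± 151 CPM in NC, MC and UB, and 1599 ± 169.7, 1224 ± 166 and 2362 ± 199.6 CPM in NFD, HFD and Uro (SD, n = 5 each). Within the treatment study, the HFD libraries ranged from 1017 to 1461 CPM and the Uro libraries from 2129 to 2647 CPM, so these groups did not overlap. The NFD libraries, from 1328 to 1743 CPM, overlapped with HFD. In the prevention study the 3 groups overlapped. As in any bulk tissue, a change in the amount of RNA per cell and a change in the number of cells of a type cannot be told apart.

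**Figure D1:**
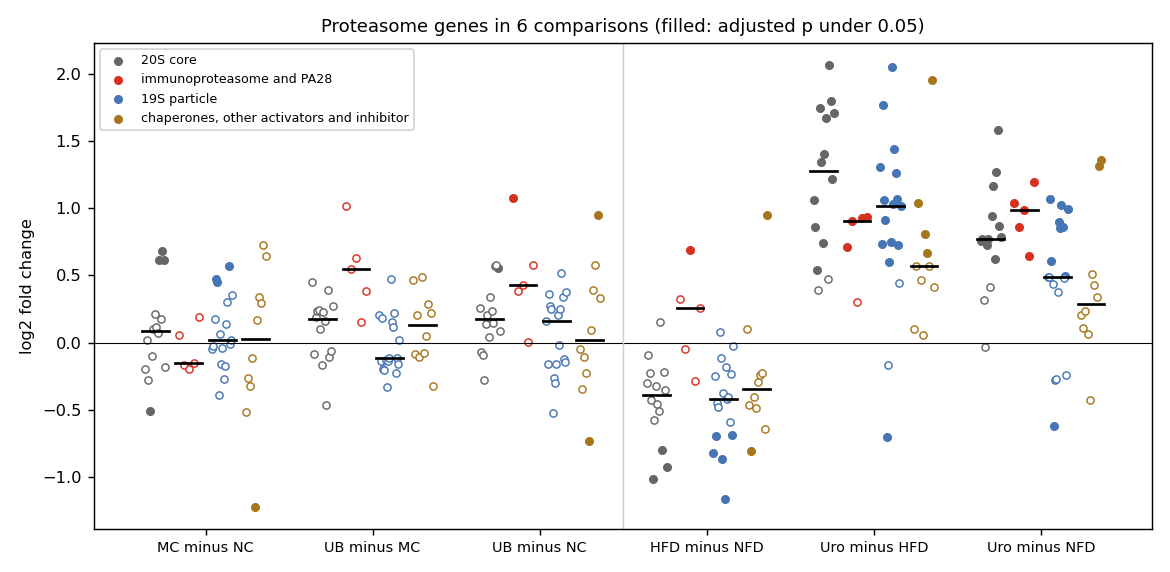
Log2 fold change of each tested proteasome gene in 6 comparisons, coloured by role, with filled points at an adjusted p under 0.05 (edgeR) and a black line at the median of each role. The 3 comparisons on the left are of the prevention study and the 3 on the right of the treatment study. In Uro minus HFD the points of the 20S core lie at 0.40 to 2.07, and in UB minus MC no point is filled.

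Psmb5, the subunit with chymotrypsin-like activity, was at 48.1, 52.2, 39.1, 54.0 and 82.2 CPM in the NC libraries, 74.4, 106, 104, 103 and 56.0 in MC and 68.8, 73.3, 79.6, 92.8 and 97.7 in UB. In the treatment study it was at 53.5, 65.5, 56.9, 22.9 and 29.4 CPM in NFD, 23.9, 57.9, 37.8, 39.3 and 31.8 in HFD and 122, 133, 165, 112 and 120.5 in Uro. Every Uro library was above every other library for this gene, whereas NFD and HFD overlapped. Psmb7, the subunit with trypsin-like activity, was at 36.0, 46.1, 51.3, 29.4 and 35.1 CPM in NFD, 17.6, 22.4, 21.4, 23 and 16.9 in HFD and 69.0, 60.1, 63.4, 64.4 and 69.6 in Uro. Its 3 groups of the treatment study did not overlap, with HFD lowest. In the prevention study Psmb7 ranged from 60.6 to 85.3 CPM in NC, 39.9 to 87.2 in MC and 67.9 to 86.1 in UB, groups that overlapped. Psmb6, the subunit with caspase-like activity, averaged 68.4 ± 11.9, 105 ± 22.8 and 101 ± 8.96 CPM in NC, MC and UB, and 76.6 ± 29.1, 58.5 ± 9.67 and 133 ± 18.0 CPM in NFD, HFD and Uro (SD, n = 5 each).

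Psmb8, the immunoproteasome counterpart of Psmb5, was at 16.8, 30.4, 21.9, 27.2 and 28.4 CPM in the NC libraries, 19.6, 26.9, 27.8, 23.5 and 13.5 in MC and 27.3, 18.2, 66.7, 26.0 and 25.0 in UB. In the treatment study it was at 24.8, 21.2, 22.2, 10.6 and 14.1 CPM in NFD, 12.8, 22.5, 15.8, 23.1 and 13.4 in HFD and 38.0, 28.3, 31.4, 33.9 and 29.9 in Uro. Uro was above both other groups of its study, and UB replicate 3 was far above the other UB libraries. Psmb9, the counterpart of Psmb6, was at 6.93, 19.2, 12, 11.3 and 25.1 CPM in NC, 8.55, 12.1, 17.6, 14.3 and 12.7 in MC and 10.0, 9.96, 52.7, 17.1 and 11.3 in UB. In the treatment study it was at 10.2, 6.71, 13.1, 5.71 and 8.13 CPM in NFD, 11, 16.9, 14.2, 13.9 and 12.5 in HFD and 16.1, 14.6, 17, 19.9 and 15.7 in Uro. NFD was lowest of the 3 groups, with 1 library inside the range of HFD, and HFD overlapped with Uro. Psmb10, the counterpart of Psmb7, was at 15.1, 19.8, 11.2, 21.3 and 21.7 CPM in NC, 17.1, 18.7, 18.3, 19.5 and 19.4 in MC and 33.9, 17.3, 84.9, 24 and 28.7 in UB. In the treatment study it was at 19.1, 18.7, 18.8, 9.87 and 20.1 CPM in NFD, 27.4, 20.4, 21.8, 21.4 and 14.6 in HFD and 37.1, 36.2, 34.7, 28.9 and 32.8 in Uro. Uro was above NFD and HFD in every library, and NFD replicate 4 was the lowest of the series.

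Psme1, the alpha subunit of PA28, averaged 86.1 ± 11.2, 77.7 ± 7.96 and 86.6 ± 25.7 CPM in NC, MC and UB, and 72.5 ± 11.2, 57.7 ± 7.08 and 108 ± 28.3 CPM in NFD, HFD and Uro (SD, n = 5 each). Psme2, its beta subunit, averaged 43.0 ± 7.38, 49.1 ± 6.28, 64.2 ± 21.3, 35.8 ± 7.65, 41.6 ± 5.6 and 78.3 ± 9.43 CPM in the same order (SD, n = 5 each). For both genes every Uro library was above every NFD and HFD library. Psme2b is a near-identical copy of Psme2, so the split of reads between them is uncertain. It had at most 24 counts in any library, and Psme2 had at least 250.

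UB replicate 3 stood apart in the immunoproteasome and interferon genes. Psmb8, Psmb9 and Psmb10 were at 66.7, 52.7 and 84.9 CPM there, against at most 27.3, 17.1 and 33.9 CPM in the other UB libraries. This library was the highest of all 30 for these 3 genes and the highest of UB for both PA28 genes. It was also the highest of UB for 24 of 25 measured interferon response genes, and the highest of all 30 libraries for 19 of them. Psmb5, Psmb6 and Psmb7, at 79.6, 102 and 77.5 CPM, lay within the range of the other UB libraries.

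**Figure D2:**
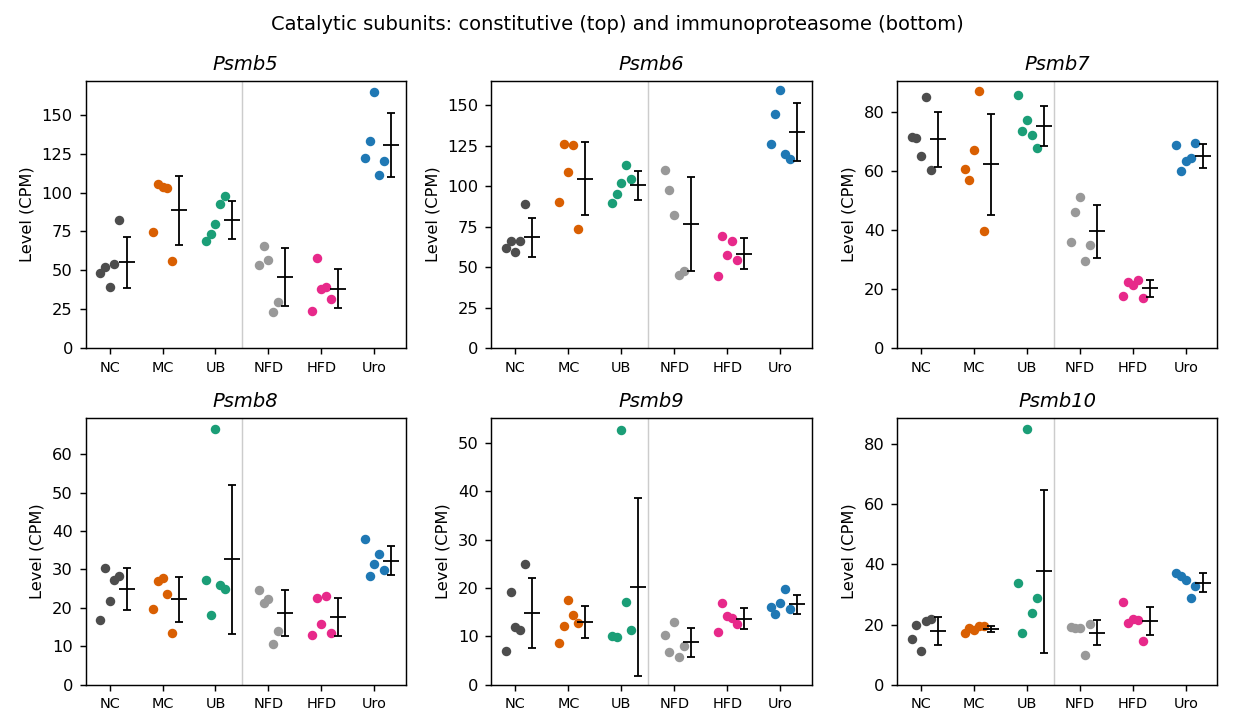
Level in CPM of the 3 constitutive catalytic genes (top) and their 3 immunoproteasome counterparts (bottom) in each of 30 libraries, with mean and SD of each group (n = 5). In the bottom row UB replicate 3 lies far above the other UB libraries, at 66.7, 52.7 and 84.9 CPM. In the top row HFD lies lowest for Psmb7.

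Levels of different genes are set side by side on the deposited TPM scale, which is per length. In Uro, Psmb6 had 295 TPM, Psmb5 239, Psmb7 83.4, Psmb10 57.2, Psmb8 43.5 and Psmb9 19.5 TPM (means of 5 libraries). In HFD the order was Psmb6 at 66.4, Psmb5 at 35.1, Psmb10 at 26.2, Psmb7 at 12.5, Psmb8 at 9.97 and Psmb9 at 9.82 TPM. On this scale the mean of Psmb10 was above that of Psmb7 in HFD and below it in Uro. The order in HFD rests on the length used, since on counts per kilobase of the table's gene length Psmb10 was below Psmb7 in 4 of 5 HFD libraries.

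Promoters are shown for 3 genes whose groups stand for the constitutive core, the immunoproteasome and PA28. The windows hold 250 bases before and 50 bases from the annotated start (RefSeq, GRCm38.p6), and the capitals mark a match to a searched motif. Psmb5 (chr14:54617946-54618245, minus strand) holds TGACNNNGC, the core of the antioxidant response element, which NRF1 and NRF2 bind. Psmb8 (chr17:34197945-34198244, plus strand) holds TTCNNNGAA, the core of the gamma-activated site. Psme1 (chr14:55578244-55578543, plus strand) holds, on the other strand, GAAA followed after any 2 bases by GAAA, the core of the interferon-stimulated response element.
Psmb5: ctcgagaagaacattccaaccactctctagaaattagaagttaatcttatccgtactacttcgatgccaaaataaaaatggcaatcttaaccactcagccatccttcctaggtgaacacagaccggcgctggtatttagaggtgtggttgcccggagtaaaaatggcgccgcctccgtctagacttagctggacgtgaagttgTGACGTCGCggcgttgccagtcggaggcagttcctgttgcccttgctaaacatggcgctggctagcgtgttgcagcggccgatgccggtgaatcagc
Psmb8: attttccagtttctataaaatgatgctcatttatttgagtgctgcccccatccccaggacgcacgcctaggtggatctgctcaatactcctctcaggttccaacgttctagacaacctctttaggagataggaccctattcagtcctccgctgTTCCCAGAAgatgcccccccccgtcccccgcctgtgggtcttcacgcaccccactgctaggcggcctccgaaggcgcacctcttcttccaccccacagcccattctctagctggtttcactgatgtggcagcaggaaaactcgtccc
Psme1: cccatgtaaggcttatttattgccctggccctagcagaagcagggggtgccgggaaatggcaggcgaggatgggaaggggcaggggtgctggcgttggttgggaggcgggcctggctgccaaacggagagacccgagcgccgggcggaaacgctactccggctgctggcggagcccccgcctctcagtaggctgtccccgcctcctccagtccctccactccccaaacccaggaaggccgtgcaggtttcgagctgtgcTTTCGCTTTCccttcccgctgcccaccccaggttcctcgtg

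The match in Psmb5 lay at bases -47 to -39 from the start, that in Psmb8 at -97 to -89, and that in Psme1 at 9 to 18 after it. RefSeq promoters were found for 43 of the 51 genes, and both strands were searched. TGACNNNGC was in 6 of the 43 (14.0%), those of Psmb5, Psmb6, Psmc6, Psmd12, Psmd9 and Psme4, and in 12.4% of all 32851 promoters. This interferon-stimulated core was in 5 (11.6%), those of Psmb3, Psmd4, Psmd9, Psme1 and Psmg4, and in 3.44% of all promoters. TTCNNNGAA was in 3 (6.98%), those of Psmb8, Psmd2 and Psmg1, and in 8.3% of all promoters. A match describes the letters only and does not show that a factor binds there.

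The comparison of MC with NC concerned 10 weeks of high-fat diet. Psme4, which encodes the activator PA200, fell, and so did Psma4 of the alpha ring, whereas 6 genes rose, namely Psmb3, Psmb5, Psmb6, Psmc4, Psmc5 and Psmd4. Psme4 was at 48.0, 48.9, 39.9, 44.5 and 28.5 CPM in NC and at 25.5, 17, 18.6, 17.1 and 11.8 in MC, groups that did not overlap. Its log2 fold change was -1.22 ± 0.20 (SE), with adjusted p = 0.000511 (edgeR quasi-likelihood test, Benjamini-Hochberg over all genes, as for every adjusted p of a gene below). Psma4 went from 66.0 ± 6.55 to 46.3 ± 5.04 CPM, also without overlap (edgeR adjusted p = 0.0361). The log2 changes of Psmb5 and Psmb6 were 0.68 ± 0.20 and 0.61 ± 0.17 (edgeR adjusted p = 0.03 and 0.0214). Psmc4, an ATPase, rose from 46.9 ± 2.71 to 65.1 ± 6.86 CPM with no overlap (edgeR adjusted p = 0.0437). Psmb3 of the beta ring, Psmc5, another ATPase, and Psmd4, a ubiquitin receptor, rose by 0.61, 0.45 and 0.57 on the log2 scale, with overlapping groups (edgeR adjusted p = 0.0247, 0.0445 and 0.0294).

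In this comparison 8 of the 48 tested proteasome genes were called, against 12.2% of all genes tested, of which 6.65% were called higher and 5.53% lower, and the median log2 fold change was 0.04, against 0.03 over all genes. No immunoproteasome or PA28 gene was called, and their log2 fold changes lay between -0.20 and 0.19. The 8 calls depended on single libraries, on the scale and on the mitochondrial share. With the share as a covariate 0 genes were called higher and 1 lower, and 1 fit of all 30 libraries gave 3 higher and 1 lower. Of all genes these settings called 389 and 1532, against 1645 in the main fit. The proteasome calls numbered 1 without NC replicate 2 or without NC replicate 3, 2 without MC replicate 2, 3 or 4, and 4 without NC replicate 1 or 4. Calls over all genes also moved, to between 923 and 1400 in these fits. With deposited TPM 13 genes were called higher and 0 lower, and with TPM rescaled without mitochondrial genes 0 higher and 10 lower, where the median of all genes was itself at 0.25 and at -0.31.

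UB-NPs given alongside the high-fat diet were compared with the diet alone, UB with MC. None of the 48 proteasome genes passed the test, as was the case for all but 0.607% of all genes. At an unadjusted p under 0.05 there were 6 proteasome genes by edgeR, and DESeq2 called 1. Over all genes, 1446 of 13498 had such a p by edgeR, and DESeq2 called 234. Psmb10 had the smallest p, with a log2 difference of 1.02 ± 0.32 (SE, edgeR adjusted p = 0.213), and 0.48 without UB replicate 3. Psmb3 had a log2 difference of -0.46 ± 0.17 (edgeR adjusted p = 0.295). For Psmb5 the difference was -0.10, with a 95% interval of -0.50 to 0.29, and for Psmb8 it was 0.55, from -0.02 to 1.11. For Psmb9 it was 0.63, from -0.29 to 1.55, and without UB replicate 3 it turned to -0.11. The median over the 48 genes was 0.11, against 0.00 over all genes.

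Compared with NC, 4 genes were called in UB, against 7.8% of all genes, 4.47% higher and 3.33% lower. Psmg3, an assembly chaperone of the alpha ring, rose from 4.46 ± 1.12 to 8.67 ± 1.03 CPM without overlap (edgeR adjusted p = 0.023). Psmb6 rose by 0.55 on the log2 scale without overlap (edgeR adjusted p = 0.045), and Psmb10 rose by 1.08 with overlap (edgeR adjusted p = 0.0487). Psme4 fell by 0.73 with overlap between groups (edgeR adjusted p = 0.0222), and on the deposited TPM scale its difference was 0.44. Without UB replicate 3, Psmb10 was at 0.54 and Psmb6 at 0.55 and neither passed (edgeR adjusted p = 0.141 and 0.0827), which left Psmg3 and Psme4. Counts without other libraries ran from 0, without NC replicate 1 or UB replicate 5, through 1, without NC replicate 2 or 3 or UB replicate 4, and 2, without NC replicate 4, to 5. Calls over all genes ran from 550 to 1589 when 1 library was left out, against 1053 with all libraries. With the mitochondrial share as a covariate 0 proteasome genes were called, and 71 of all genes tested. Deposited TPM gave 42 higher and 0 lower, where the median of all genes was 0.55, and TPM rescaled without mitochondrial genes gave 1 higher and 0 lower. These scales called 7637 and 547 of all genes.

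In obese mice after 18 weeks of high-fat diet, HFD against NFD, 9 proteasome genes fell and 2 rose, out of 47 tested, against 13.2% of all genes called in either direction with 5.96% called lower and 7.19% higher. Those that fell came from the core (Psma5, Psmb4, Psmb7), the ATPases (Psmc1, Psmc3), the non-ATPase subunits (Psmd7, Psmd11, Psmd13) and the chaperones (Psmd9). Those that rose were Psmb9 of the immunoproteasome and Psmg4, an assembly chaperone. Of the 47 genes, 40 had a negative log2 fold change, as did 48% of all genes, and the median was -0.38, against 0.03 over all genes. For the 42 proteasome genes at a mean of at least 10 CPM the median was -0.39, against -0.14 for all genes at that level.

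Psmb7 fell by 0.93 ± 0.18 on the log2 scale, from 39.6 ± 8.89 to 20.3 ± 2.82 CPM (SD, n = 5 each; edgeR adjusted p = 0.00164). Psma5 of the alpha ring fell from 22.1 ± 8.35 to 10.6 ± 2.02 CPM (edgeR adjusted p = 0.00574), with overlap. Psmd11, a lid subunit, fell from 43.4 ± 8.53 to 23.1 ± 5.81 CPM, and Psmc1, an ATPase, from 37.3 ± 7.10 to 20.5 ± 3.83 CPM, both without overlap (edgeR adjusted p = 0.00555 and 0.00768). Psmd13, a lid subunit, was at 16.1, 16.7, 18.5, 7.34 and 17 CPM in NFD and 9.31, 6.04, 7.43, 6.81 and 3.54 in HFD (edgeR adjusted p = 0.00951). NFD replicate 4 alone reached down into the HFD range for it. Psmb9 rose by 0.69 ± 0.21, from 8.77 ± 2.95 to 13.7 ± 2.20 CPM (edgeR adjusted p = 0.035). This call was lost with the replicate block (edgeR adjusted p = 0.0557) and in 1 fit of all 30 libraries (edgeR adjusted p = 0.256). It was also lost without NFD replicate 2 or 4 or HFD replicate 2, 3, 4 or 5, with edgeR adjusted p of up to 0.0906. Its gene (chromosome 17, 34400960 to 34406738, GRCm39) overlaps Tap1 on the opposite strand. The libraries were stranded, but the strand setting of the counting is not given in the sources used here, so reads of the pair may not be fully separated.

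The other immunoproteasome genes did not pass the test in HFD against NFD. Psmb8 had a log2 difference of -0.04, Psmb10 of 0.33, Psme1 of -0.29 and Psme2 of 0.26. Markers of other groups moved in the same comparison, in which 7.19% of all genes were called higher and 5.96% lower. Of 25 measured interferon response genes 19 rose and 0 fell, among them Isg15, a ubiquitin-like modifier, from 3.37 to 16.6 CPM, and Gbp6, a guanylate-binding protein, from 4.0 to 13.5 CPM (edgeR adjusted p = 7.44e-05 and 5.31e-05). Of 12 macrophage markers 6 rose and 0 fell, and their summed level was 148 to 314 CPM in NFD and 230 to 637 in HFD. Of 12 tested lymphocyte and dendritic cell markers 4 rose. Of 8 hepatocyte markers 3 fell and 0 rose, and their summed level was 22090 to 34590 CPM in NFD and 13790 to 26240 in HFD. The part of these cells in the rise of Psmb9 and in the 9 falls was not tested.

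The fall of the 9 genes depended on the scale. With deposited TPM, 0 genes were called higher or lower, and with TPM rescaled without mitochondrial genes 4 were higher and 1 lower, where the median of all genes was 0.15 and 0.22. Relative to the median of all genes, the median of the proteasome genes was lower by 0.10 to 0.43 in all 11 settings tried, without matching for level. The count was 5 without HFD replicate 5, and 7 without HFD replicate 4 or NFD replicate 2, each time with 0 higher, and with the replicate block 0 were higher and 9 lower. Calls over all genes were 1108, 1178, 1477 and 1411 in the same order, against 1863 in the main fit.

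UB-NPs given to obese mice, Uro against HFD, gave 35 calls. Of 47 tested genes 34 rose and 1 fell, against 27.1% of all genes called in either direction and 15.3% called higher. Most proteasome genes were well expressed, and of all genes at a mean of at least 10 CPM 30.8% were called higher. The median log2 fold change was 0.91, against -0.08 over all genes, and 0.92 for the 42 proteasome genes at a mean of at least 10 CPM, against 0.22 for all genes at that level. All libraries of Uro were above all of HFD for 33 of the 47 genes, as for 13.8% of all genes. By role, 12 of 14 constitutive core genes rose, 14 of 17 regulatory particle genes, 4 of 5 immunoproteasome and PA28 genes and 3 of 7 chaperones.

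Psmb7 rose by 1.71 ± 0.18 on the log2 scale, from 20.3 ± 2.82 to 65.3 ± 3.99 CPM, 3.28-fold (SD, n = 5 each; edgeR adjusted p = 1.93e-06). Psmb4, a structural beta subunit, was at 27.2, 35.0, 24.7, 23.3 and 13.9 CPM in HFD and at 98.3, 132, 92.1, 91.4 and 96.8 in Uro. This 4.19-fold rise was the largest of the family in this comparison (edgeR adjusted p = 3.47e-06). Psmd13 rose 4.15-fold, from 6.63 ± 2.11 to 26.8 ± 9.53 CPM (edgeR adjusted p = 2.08e-05). Psmc3, an ATPase, rose from 29.5 ± 7.67 to 98.8 ± 20.6 CPM and Psmb2, a beta subunit, from 11.4 ± 2.58 to 35.7 ± 5.69 CPM (edgeR adjusted p = 3.47e-06 and 3.49e-06). Psmd2, a scaffold of the regulatory particle, rose from 24.3 ± 5.62 to 64.9 ± 10.7 CPM, Psma5 from 10.6 ± 2.02 to 34.8 ± 3.77 and Psmb1 from 35.6 ± 8.11 to 92.5 ± 7.10 CPM (edgeR adjusted p = 1.11e-05, 1.24e-05 and 1.47e-05). None of these genes overlapped between the groups.

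The catalytic genes Psmb5 and Psmb6 rose 3.48-fold and 2.32-fold (edgeR adjusted p = 4.66e-05 and 0.000479). The values of the immunoproteasome genes were smaller, as tested by the ratios described further on. Psmb8 rose 1.87-fold and Psmb10 1.64-fold (edgeR adjusted p = 0.00466 and 0.0106), and Psmb9, at 1.23-fold, did not pass (edgeR adjusted p = 0.295). Psme1 and Psme2 rose 1.91-fold and 1.92-fold (edgeR adjusted p = 0.00101 and 0.000531). On TPM rescaled without mitochondrial genes the directions of Psmb9, Psmb10, Psme1 and Psme2 turned, to -0.70, -0.66, -0.07 and -0.42, where the median of all genes was -0.52. Psmc6, an ATPase, was the 1 gene of the family called lower, from 46.0, 56.0, 55.0, 42.6 and 47.4 CPM in HFD to 37.9, 23.5, 19.4, 28.8 and 39.7 in Uro (edgeR adjusted p = 0.0155). No gene was called lower without Uro replicate 3, or without the library highest in mitochondrial share in each group.

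The 34 rises came with the low mitochondrial share of Uro, and their size rested on the scale. With the share as a covariate 0 proteasome genes were called, and only 2 of all genes tested. The median of the proteasome genes was 0.61 there. Deposited TPM gave 46 higher and 0 lower, and TPM rescaled without mitochondrial genes 13 higher and 7 lower. These scales called 8000 and 5852 of all genes, whose medians were 0.55 and -0.52. Relative to the median of all genes, the proteasome genes were higher by 0.59 to 1.27 in all 11 settings, without matching for level. Leaving out single libraries gave 32 to 34 genes. Across all genes tested, the log2 fold change of this comparison had a Spearman rho of -0.27 with gene length and 0.17 with GC content, and across the 47 proteasome genes of -0.26 and 0.25, as descriptions, since genes are not independent replicates. With mean log2 CPM, rho was 0.305 across all genes and 0.349 across the proteasome genes, whose median level was 5.26 against 2.52 for all. The median length was 1430 bases for these genes and 2720 for all.

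Against NFD, 26 genes rose and 1 fell in Uro, with 28.4% of all genes called in either direction, 16.1% called higher and 12.3% lower, and 25.3% higher among genes at 10 CPM or more. This comparison shares the Uro libraries with the last one. All 5 immunoproteasome and PA28 genes rose, with log2 fold changes of 0.64 to 1.19, without overlap between the groups, as was the case upwards for 11.5% of all genes. Psme2 rose 2.29-fold and Psmb10 2.06-fold (edgeR adjusted p = 5.17e-05 and 0.000534). Psmb2, Psmb5, Psmb4 and Psmd2 rose 2.24-fold, 2.99-fold, 2.41-fold and 2.03-fold (edgeR adjusted p = 0.000106, 0.000148, 0.000306 and 0.000291). Psmd8, a lid subunit, and Psmc3 rose 1.99-fold and 2.10-fold (edgeR adjusted p = 0.000333 and 0.000374). Psmc6 was below NFD in all Uro libraries, at a log2 difference of -0.62 (edgeR adjusted p = 0.0284). No gene was called lower with no filter on low counts, without the library highest in mitochondrial share in each group, or without NFD replicate 4 or Uro replicate 2, 3 or 4. With the mitochondrial share as a covariate 0 proteasome genes were called, and 0 of all genes tested. Deposited TPM gave 47 higher and 0 lower, and TPM rescaled without mitochondrial genes 9 higher and 4 lower, where the medians of all genes were 0.76 and -0.27. These scales called 10661 and 3841 of all genes.

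The effect of UB-NPs was compared between the studies as an interaction in a fit of all 30 libraries. It was more positive in obese mice for 25 of 49 proteasome genes and more negative for 0, against 12.3% of all genes called in either direction and 8.54% called in that direction. Among all genes at 10 CPM or more 20.5% were called in that direction. The median interaction was 0.84 on the log2 scale, against -0.08 over all genes. Of the constitutive core 11 of 14 genes were called, and of the regulatory particle 13 of 17. None of the 5 immunoproteasome and PA28 genes was called, with 2 of them at an unadjusted p under 0.05, Psme1 at 0.75 ± 0.26 and Psme2 at 0.53 ± 0.26 (edgeR adjusted p = 0.0501 and 0.194). Psmb8, Psmb9 and Psmb10 had interactions of 0.33 ± 0.38, -0.35 ± 0.50 and -0.34 ± 0.38. UB minus MC, which enters these interactions, leaned on UB replicate 3. Without this library it went from 0.63 to -0.11 for Psmb9 and from 1.02 to 0.48 for Psmb10. Interactions of these genes without it are not reported here.

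Psmc3 had the smallest p, with an interaction of 1.56 ± 0.25 (edgeR adjusted p = 7.93e-05). Psmb2, Psmb7 and Psmb5 followed with 1.48 ± 0.26, 1.41 ± 0.25 and 1.87 ± 0.34 (edgeR adjusted p = 0.000155, 0.000171 and 0.000311). Psmc4, Psmd2, Psmb4 and Psmc5 had interactions of 1.23, 1.30, 1.65 and 1.09 (edgeR adjusted p = 0.000321, 0.000376, 0.000415 and 0.000942). On TPM rescaled without mitochondrial genes the interaction of Psmc4 was -0.13. On that scale 1 gene of the family was called higher and 8 lower, with the median of all genes at -0.71. Once the mitochondrial share entered as a covariate, 0 genes of the family were called, and 0 of all genes tested. Relative to the median of all genes the interaction of the family was higher by 0.43 to 1.13 in 10 settings, without matching for level. At a mean of at least 10 CPM the median interaction was 0.851 for the family and 0.225 for all genes.

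**Figure D3:**
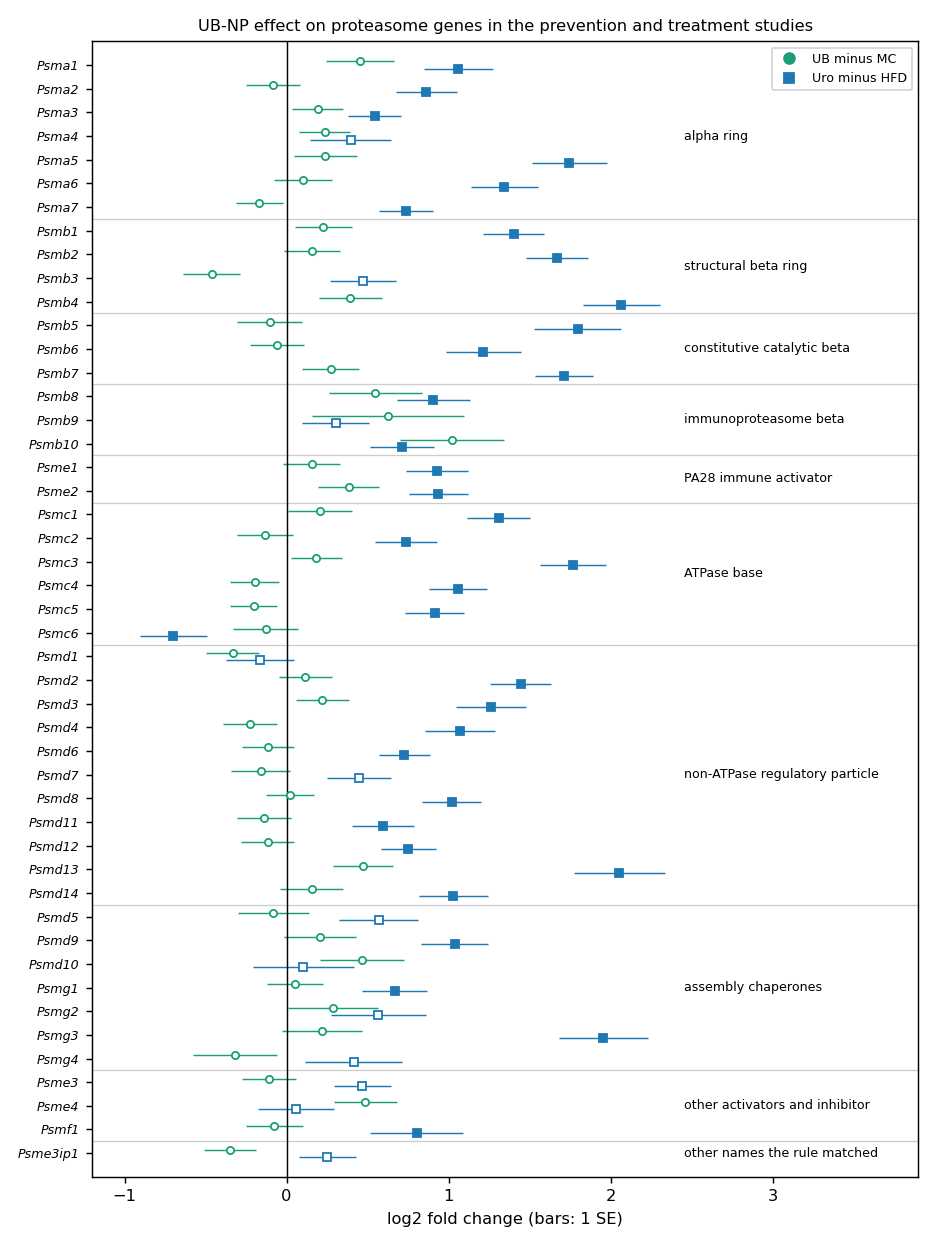
Log2 fold change with 1 SE of 47 proteasome genes in UB minus MC (circles) and Uro minus HFD (squares), by role, with filled symbols at an adjusted p under 0.05 (edgeR). No circle is filled. The squares lie to the right of the circles for most core and regulatory genes, for Psmb4 at 2.07 against 0.39, and Psmc6 is the filled square left of 0, at -0.70.

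The diet effect also differed between the studies. It was lower in the treatment study for 7 of 49 genes and higher for 0, against 5.42% of all genes called in either direction and 3.42% called lower. Psmd4, Psmc5 and Psmc4 had interactions of -1.2 ± 0.27, -0.97 ± 0.22 and -0.96 ± 0.23 (edgeR adjusted p = 0.00821, 0.00923 and 0.011). Psmg3, Psmc3, Psmb6 and Psmb4 had -1.42, -0.92, -1.01 and -1.02 (edgeR adjusted p = 0.0228, 0.0267, 0.0322 and 0.0466). The count was 17 without MC replicate 5 or NFD replicate 4, 11 without NFD replicate 5, 4 without MC replicate 3 and 3 without MC replicate 4 or HFD replicate 5. Calls over all genes were 1205, 1073, 1383, 495, 500 and 524 in the same order, against 801 in the main fit. Deposited TPM gave 0 calls, and TPM rescaled without mitochondrial genes 4 higher and 0 lower, with the median of all genes at 0.50.

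Within a library, the ratio of an immunoproteasome gene to its constitutive counterpart does not depend on how libraries are scaled. Ratios of counts per kilobase were tested with exact permutation tests (two-sided), whose smallest p for 5 against 5 is 0.007937, adjusted over 18 tests. Psmb10 over Psmb7 was 93.3 ± 24.9% in HFD, against 39.1 ± 9.19% in NFD and 46.2 ± 5.48% in Uro (SD, n = 5 each). It was higher in all HFD libraries, at 76.5 to 137%, than in any NFD or Uro library. The log2 differences were 1.25 ± 0.21 for HFD minus NFD and -0.99 ± 0.17 for Uro minus HFD (exact permutation p = 0.007937 for both, adjusted p = 0.02041). Psmb9 over Psmb6 was likewise highest in HFD, at 7.27 ± 2.53% in NFD, 13.9 ± 0.936% in HFD and 7.49 ± 1.52% in Uro. Its differences were 1.01 ± 0.25 and -0.91 ± 0.13 (exact permutation p = 0.007937, adjusted p = 0.02041 for both). For HFD minus NFD this call was lost without HFD replicate 1, 2 or 3 (exact permutation, adjusted p = 0.0612).

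Psmb8 over Psmb5 was 23.4 ± 3.62% in NFD, 26.0 ± 4.74% in HFD and 14.0 ± 2.99% in Uro. The ratio in Uro was below that in HFD by 0.90 ± 0.18 and below that in NFD by 0.75 ± 0.18 on the log2 scale (exact permutation p = 0.007937, adjusted p = 0.02041 for both), and HFD did not differ from NFD beyond the spread (exact permutation p = 0.3651). In the prevention study this ratio was 25.9 ± 6.33% in NC and 13.9 ± 0.920% in MC, without overlap (exact permutation p = 0.007937, adjusted p = 0.02041), a call that was lost without MC replicate 2, 4 or 5 (exact permutation, adjusted p = 0.0612). UB libraries lay between 13.7 and 46.3%, with UB replicate 3 highest. The 11 other ratio tests did not pass. Without UB replicate 2, Psmb8 over Psmb5 in UB minus MC, at 0.65, and Psmb10 over Psmb7 in UB minus NC, at 1.01, did (exact permutation, adjusted p = 0.0476 for both). Numerator and denominator moved unequally in HFD. Psmb7 was called lower there and Psmb10 did not pass, whereas Psmb9 was called higher, with the limits given above, and Psmb6 did not pass.

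The table's gene length was used for the ratios. The length implied by the deposited TPM was 0.468 of it for Psmb10 and 0.639 for Psmb8, so the percentages themselves depend on it. As ratios of deposited TPM, Psmb10 over Psmb7 was 82.7% in NFD, 216% in HFD and 68.8% in Uro. On that scale 6 of the 7 differences that passed did so again, and Psmb8 over Psmb5 in Uro minus NFD, at -0.53, did not (exact permutation, adjusted p = 0.0816). In each pair the immunoproteasome gene was the longer. Table lengths were 1628 against 899 bases for Psmb8, 1352 against 798 for Psmb9 and 1311 against 1160 for Psmb10. Over all genes, Spearman rho of log2 fold change with length was -0.27 in Uro minus HFD, -0.185 in Uro minus NFD and -0.08 in MC minus NC. In HFD minus NFD it was 0.11. Over the proteasome genes these were -0.26, -0.459, -0.485 and -0.13. The part of length in the ratios was not tested.

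**Figure D4:**
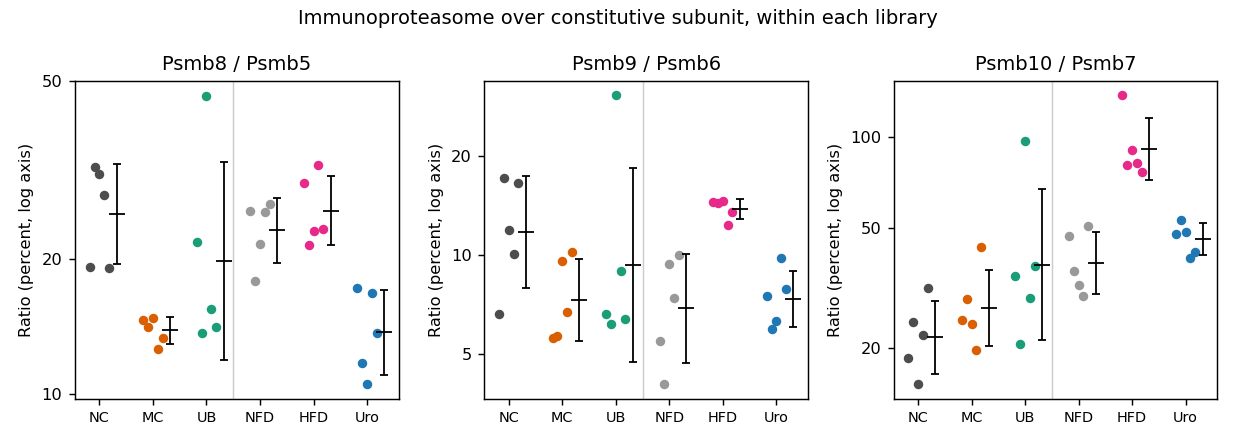
Ratio of counts per kilobase of each immunoproteasome gene to its constitutive counterpart, in percent on a log axis, for each of 30 libraries, with mean and SD of each group on the log2 scale (n = 5). For Psmb10 over Psmb7 the HFD libraries lie at 76.5 to 137%, above all NFD and Uro libraries. For Psmb8 over Psmb5 the MC libraries lie at 12.6 to 14.8%, below all NC libraries.

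Partners of the proteasome were measured as a list of 27 genes for assembly, substrate delivery, ubiquitin supply and transcription. In Uro against HFD 10 of them rose and 0 fell, against 15.3% of all genes called higher and 11.7% lower. Of all genes at a mean of at least 10 CPM 30.8% were called higher. The median log2 fold change of the list was 0.45, against -0.08 over all genes and 0.22 over all genes at that level. Ubb, which encodes polyubiquitin, rose from 216 to 946 CPM, Pomp, the maturation protein of the core, from 22.1 to 71.9, Uba1, the ubiquitin-activating enzyme, from 20.3 to 50.5, and Sem1, a small lid subunit, from 16.8 to 42.1 CPM (edgeR adjusted p = 1.07e-05, 1.95e-05, 1.19e-05 and 7.03e-05). In HFD against NFD 5 fell and 1 rose, where 5.96% of all genes fell and 7.19% rose. The gene that rose was Nfe2l2, which encodes NRF2, from 17.4 to 34.7 CPM (edgeR adjusted p = 0.0036), and among those that fell was Ubqln1, a shuttle of ubiquitinated proteins (edgeR adjusted p = 0.00768). In MC against NC 2 of the 27 rose and 0 fell, a share near the 6.65% of all genes called higher. These were Ubb from 415 to 678 CPM and Nfe2l1, which encodes the proteasome gene activator NRF1, from 38.3 to 58.8 CPM (edgeR adjusted p = 0.0163 and 0.0247). In UB against MC 0 of 27 passed the edgeR test, where 0.607% of all genes did. In UB against NC 1 rose, which was Ubb, against 4.47% of all genes called higher.

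Genes that use the products of the immunoproteasome, a list of 18 for class I antigen processing, were called higher in 9 cases and lower in 0 in HFD against NFD, against 7.19% of all genes called higher. Among them was B2m, the light chain of class I molecules, from 1542 to 2554 CPM (edgeR adjusted p = 0.0323). In Uro against HFD 7 rose and 3 fell, beside 15.3% and 11.7% of all genes, and 30.8% higher among genes at 10 CPM or more. H2-Q10, a class I gene of the liver, rose from 383 to 1055 CPM, and Nlrc5, the transactivator of class I genes, fell from 21.4 to 10.2 CPM (edgeR adjusted p = 5.43e-05 and 0.000846). Of the 25 interferon response genes, 11 fell and 1 rose in this comparison, with a median log2 fold change of -0.68, against 11.7% of all genes called lower. In Uro against NFD, where 16.1% of all genes were called higher and 12.3% lower, 9 of the 25 interferon genes rose and 2 fell, and 10 of the 18 class I genes rose and 1 fell. In Uro against HFD, Stat2 fell from 81.5 to 19.9 CPM, and Bst2, the antiviral tetherin, rose from 42.0 to 173 CPM (edgeR adjusted p = 1.55e-05 and 8.78e-06). Psmb8, Psmb10, Psme1 and Psme2 rose in the same libraries, as given above. In MC against NC 5 of the 25 interferon genes fell and 0 rose, against 5.53% of all genes called lower, with Ifit2 going from 13.2 to 3.04 CPM (edgeR adjusted p = 0.00448). In UB against MC 0 of the 25 passed the edgeR test, where 0.607% of all genes did, and UB replicate 3 was highest of UB for all but Ifit2.

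Of 12 macrophage markers, 1 rose and 1 fell in Uro against HFD, where 15.3% of all genes were called higher and 11.7% lower, and their summed level was 278 to 501 CPM in Uro. Of 12 tested lymphocyte and dendritic cell markers, 0 passed the edgeR test there, and their summed level was 13.5 to 25.1 CPM in Uro and 20.7 to 33.4 in HFD. Hepatocyte markers rose in 4 of 8 cases and fell in 0, and endothelial markers rose in 3 of 8. Of all genes at a mean of at least 10 CPM 30.8% were called higher there. In Uro against NFD 16.1% of all genes were called higher and 12.3% lower. There 5 of 12 macrophage markers rose and 0 fell, and 3 of 12 tested lymphocyte and dendritic cell markers rose and 1 fell. In MC against NC 2 macrophage markers fell, against 5.53% of all genes. The part of any of these cell types in the values of the proteasome genes was not tested.

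Over the 30 libraries, the log2 CPM of Psmb5 had a Pearson r with the 13 other constitutive core genes that ranged from 0.02 for Psma4 and 0.39 for Psma3 to 0.85 for Psma7 and 0.96 for Psmb6. Outside the core, r was 0.88 with the chaperone Psmg3, -0.33 with Psmd1, a scaffold of the regulatory particle, and -0.64 with Psmc6. Psme2 had an r of 0.82 with Psmb5. Psmb8 was most like Psme2 (0.79), Psme1 (0.77), Psmb9 (0.75) and Psmb10 (0.73) within the family. Close below were Psma2 (0.717), Psmb5 (0.715), Psmb1 (0.701) and Psmb6 (0.692). Outside it, among 11848 genes at a mean of at least 1 CPM, the 10 genes with the highest r were Cmc2 (0.816), Selenow (0.804), Ube2l6 (0.800), Mrpl32 (0.785), Yipf1 (0.772), Ndufb6 (0.765), Ndufc1 (0.765), Pttg1 (0.755), S100a1 (0.751) and Ndufb3 (0.747). The list was not tested for any shared function. These values describe libraries that share group, depth and mitochondrial share. With group means removed, r of these 10 genes was 0.573 for S100a1 to 0.769 for Cmc2. UB replicate 3, the highest of all 30 libraries for Psmb8, was kept in both sets of values.

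The authors' deposited table of calls lists 20 proteasome genes as higher and 1 as lower in Uro against HFD, among 2852 genes they called there. All 20 were also called higher here, and the lower one, Psma8, was below the filter of the treatment study. The authors' deposited table lists 7 as higher in Uro against NFD (among 2898 genes called) and Psma5 and Psmd13 as lower in HFD against NFD (1274). It lists Psme4 as lower in MC against NC (851), Psmb10 as higher in UB against NC (678), and 0 in UB against MC (128). Each of these was called here in the same direction, from the same libraries.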

How the data were processed

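According to the labels' protocols, the 30 liver RNA samples were made into stranded libraries after poly(A) selection. The tools named in the submitters' processing notes are fastp, HISAT2, StringTie and DESeq2, with the build GRCm39. Their versions and settings, and the annotation release, are not given in the sources used here. The authors deposited estimated counts per gene, which were rounded to whole numbers here, and TPM values scaled by length. A deposited table of the authors' calls was used for its directions only.

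The members, lists and tests were chosen with earlier results of these data known. Described by name were the 8 catalytic, immunoproteasome and PA28 genes, in each comparison at most the 8 called genes with the smallest p (the 2 smallest where none was called), at most 4 genes of each partner, class I and interferon list, and the 10 genes most like Psmb8. Named after their values were seen were Ifit2, Psma3, Psma7, Psma8, Psmc6, Psmd1, Psmd7, Psmg4 and Tap1, and Psma2, Psma4, Psmb1 and Psmg3 in the correlations. Genes listed by role or promoter match were named for that. Some genes that this rule selects are not reported here.

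The 15 libraries of each study had a fit of their own in edgeR 4.0.16 (R 4.3.3; filterByExpr, TMM, robust quasi-likelihood F-test, two-sided, Benjamini-Hochberg over all genes, threshold 0.05, no fold minimum), and interactions in 1 fit of all 30. The SE is the log2 fold change over the square root of F, and intervals are 1.96 SE each way. CPM are on the sizes of the joint fit, 0.981 to 1.05 times those of the single fits. Alternatives used DESeq2 1.42.0, limma 3.58.1 on log2(TPM + 1) and others given in the closing section. TPM rescaled without mitochondrial genes, and leaving out the library with the highest mitochondrial share of each group, were chosen after seeing the data. Mitochondrial copies were found with BLAST+ 2.17.0 (at least 80% identity over 50% of the gene). Ratios were tested in SciPy 1.17.1. Gene positions are those of GENCODE M39, which matched all 51 genes. None of the 60 pairs of libraries within groups was identical. The fitting was tested on simulated data.

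Same-numbered libraries were not paired, as their deviations from group means correlated at -0.25 to 0.22.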

Additional observations from a re-analysis of the deposited data

Results flagged for a closer look

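In 26 proteasome genes, each of the 6 groups was checked for a library far from the other 4, and 14 of 156 groups (8.97%) held one, where chance flags about 1 in 20. In UB, replicate 3 was far above the others for Psmb8 (66.7 CPM, others 18.2 to 27.3), Psmb9 (52.7, others 9.96 to 17.1) and Psmb10 (84.9, others 17.3 to 33.9). In NFD, replicate 4 was far below the others for Psmb10 (9.87 CPM, others 18.7 to 20.1), Psmb4 (24.1, others 48.4 to 50.7), Psmd13 (7.34, others 16.1 to 18.5) and Psmd8 (21.5, others 33.8 to 35.8). In Uro, replicate 3 was highest for Psmb2 (45.7 CPM) and Psmb3 (137 CPM), and replicate 2 for Psmb4 (132 CPM). In NC, replicate 5 was highest for Psmb6 (89.0 CPM) and Psmc5 (61.9 CPM), and replicate 1 for Psmd2 (59.1 CPM). In HFD, replicate 2 was highest for Psma4 (55.8 CPM, others 32.3 to 35.6).

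Effects that differed between the 2 studies were tested as interactions. The diet effect was lower in the treatment study for Psmd4 (-1.2), Psmc5 (-0.973), Psmc4 (-0.962), Psmg3 (-1.42), Psmc3 (-0.917), Psmb6 (-1.01) and Psmb4 (-1.02), on the log2 scale. The UB-NP effect was higher in the treatment study for Psmc3 (1.56), Psmb2 (1.48), Psmb7 (1.41), Psmb5 (1.87), Psmc4 (1.23), Psmd2 (1.3), Psmb4 (1.65) and Psmc5 (1.09), with edgeR adjusted p from 7.93e-05 to 0.000942. These 8 are the ones with the smallest p of 25 called.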

How the results depend on the processing

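With the share of mitochondrial transcripts as a covariate, the count of proteasome genes called was 1 (lower) in MC minus NC, 0 in UB minus NC, Uro minus HFD, Uro minus NFD and the UB-NP interaction, and 2 (both lower) in the diet interaction. HFD minus NFD had 2 higher and 11 lower there. Of all genes, this setting called 389 in MC minus NC, 71 in UB minus NC and 2 in Uro minus HFD. It called 0 in Uro minus NFD and the UB-NP interaction, and 186 in the diet interaction. Its median SE was 0.55 in Uro minus HFD, since the share separates Uro from all other libraries. Deposited TPM gave 13 in MC minus NC, 42 in UB minus NC, 46 in Uro minus HFD and 47 in Uro minus NFD, all higher, and 0 in HFD minus NFD and the diet interaction. Of all genes tested it called 2109, 7637, 8000, 10661, 708 and 61 in the same order. TPM rescaled without mitochondrial genes gave 1 in UB minus NC (higher), 5 in HFD minus NFD (4 higher, 1 lower), 20 in Uro minus HFD (13 higher, 7 lower), 13 in Uro minus NFD (9 higher, 4 lower), 4 in the diet interaction (all higher) and 9 in the UB-NP interaction (1 higher, 8 lower). In MC minus NC it gave 10 lower and 0 higher. Of all genes this scale called 547 in UB minus NC, 2126 in HFD minus NFD, 5852 in Uro minus HFD and 3841 in Uro minus NFD. It called 2369 in the diet interaction, 4844 in the UB-NP interaction and 2729 in MC minus NC. DESeq2 gave 1 (higher) in UB minus MC, no low-count filter 2 (1 higher, 1 lower) in UB minus NC, 1 fit of all 30 libraries 4 (3 higher, 1 lower) in MC minus NC, and leaving out the library with the highest mitochondrial share of each group 11 (all lower) in the diet interaction. Of all genes these settings called 234, 1027, 1532 and 1227 in the same order. RLE normalization and removing mitochondrial genes before scaling kept every count within 1.5 times. Leaving out 1 library gave 1 to 8 genes in MC minus NC, 0 to 0 in UB minus MC, 0 to 5 in UB minus NC, 5 to 15 in HFD minus NFD, 32 to 34 in Uro minus HFD, 23 to 28 in Uro minus NFD, 3 to 17 in the diet and 23 to 28 in the UB-NP interaction. Over all genes the prevention study gave 923 to 2315, 20 to 100 and 550 to 1589 in the same order. The treatment study gave 1108 to 2341, 3023 to 3661 and 3216 to 4222, and the interactions 495 to 1383 and 1404 to 2182. The cause of these changes was not tested.

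With the replicate number as a block the counts were 8 in MC minus NC, 0 in UB minus MC, 6 in UB minus NC, 9 in HFD minus NFD (0 higher, so the Psmb9 and Psmg4 calls were lost), 34 in Uro minus HFD, 27 in Uro minus NFD, 6 in the diet and 25 in the UB-NP interaction, and the numbers do not pair the samples. Of all genes the block called 1907, 96, 1246, 1411, 3366, 3595, 714 and 1725 in the same order. The exact paired permutation test of the 7 ratios that passed (Psmb8 over Psmb5: -0.864, -0.901 and -0.755; Psmb9 over Psmb6: 1.01 and -0.911; Psmb10 over Psmb7: 1.25 and -0.991) cannot reach the threshold with 5 pairs, with adjusted p = 0.141 for each.

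Single genes turned sign as follows. With deposited TPM, MC minus NC was 0.00869 for Psma4, 0.313 for Psmb7, 0.229 for Psmb8, 0.408 for Psmb9 and 0.39 for Psme1. UB minus MC was 0.0295 for Psmb3, 0.421 for Psmb5 and 0.453 for Psmb6. UB minus NC was 0.441 for Psme4, and HFD minus NFD was 0.193 for Psmb5, 0.106 for Psmb6, 0.349 for Psmb8 and 0.112 for Psme1. With rescaled TPM, MC minus NC was -0.072 for Psmb10 and -0.0171 for Psmc5, UB minus MC was 0.259 for Psmb5 and 0.288 for Psmb6, and HFD minus NFD was 0.0885 for Psmb5, 0.291 for Psmb8 and 0.000605 for Psme1. Uro minus HFD on that scale was -0.656 for Psmb10, -0.702 for Psmb9, -0.0728 for Psme1 and -0.421 for Psme2, and the UB-NP interaction of Psmc4 was -0.13. With the share as a covariate, Uro minus HFD was -0.178 for Psmb5, -0.0292 for Psmb6, -0.0495 for Psmb8 and -0.418 for Psmb9, and Uro minus NFD was -0.449 for Psmb5. Without the library of the highest share, Psmb10 in MC minus NC was -0.0103. As ratios of TPM, Uro minus NFD turned to -0.224 for Psmb9 over Psmb6 and -0.232 for Psmb10 over Psmb7. Psmb8 over Psmb5, at -0.532, kept its sign there and no longer passed.

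Leaving out 1 library gave, in MC minus NC, -0.0699 to 0.139 for Psmb10 and -0.373 to 0.0749 for Psmb9. In UB minus MC it gave -0.16 to 0.0164 for Psmb6, -0.111 to 0.801 for Psmb9 and -0.0386 to 0.244 for Psme1, and in HFD minus NFD -0.188 to 0.0781 for Psmb8. For the ratios it gave -0.964 to -0.776 for Psmb8 over Psmb5 in MC minus NC, where the exact permutation p missed the threshold without MC replicate 2, 4 or 5. It gave 0.816 to 1.14 for Psmb9 over Psmb6 in HFD minus NFD, which missed it without HFD replicate 1, 2 or 3 (exact permutation, adjusted p = 0.0612 in each of these cases). It gave 0.209 to 0.648 for Psmb8 over Psmb5 and -0.0721 to 0.504 for Psmb9 over Psmb6 in UB minus MC, 0.456 to 1.01 for Psmb10 over Psmb7 in UB minus NC, and -0.0942 to 0.232 for Psmb9 over Psmb6 in Uro minus NFD. Without UB replicate 2, the ratios at 0.648 and 1.01 passed (exact permutation, adjusted p = 0.0476 for both). Depth limits the values of low genes most in HFD replicate 1, with 3139342 counts outside mitochondrial genes, the fewest of the 30 libraries.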
